A study of Mus musculus with 30 samples.

Results

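Calcium handling genes of skeletal muscle were followed across 5 mouse tissues and 2 Ctcf genotypes. The group holds 10 genes, chosen by symbol: Cacna1s, Ryr1, Jph1, Trdn, Casq1, Casq2, Atp2a1, Atp2a2, Sln and Pvalb. All 10 were found among the 48709 genes of the deposited count tables. RNA-seq of total RNA covered muscle (quadriceps femoris), brain, kidney, liver and spleen of adult C57BL/6 mice, from 3 wild-type (WT) mice and 3 mice haploinsufficient for Ctcf (Ctcf+/-, with 1 functional copy, here called heterozygous), which gives 3 libraries of each genotype in each tissue and 30 in all. The protein made from Ctcf binds DNA through zinc fingers and helps to shape chromatin loops, and no other allele or treatment is stated. The labels give neither sex nor exact age, and they do not say which libraries of different tissues came from 1 mouse. The tissues were sampled whole, so fewer cells of a type and less RNA per cell cannot be told apart in any value below.

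A muscle fibre contracts when an electrical signal in its transverse tubules opens a calcium store, the sarcoplasmic reticulum. Voltage sensors in the tubule membrane touch release channels in the reticulum, junction proteins hold the membranes together, buffers in the store and in the cytosol bind calcium, and pumps return it so that the fibre relaxes. Fast and slow fibres use partly different versions of these proteins, and some of the same genes serve heart, neurons and other cells.

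Libraries held between 49819907 and 131645999 counts. Levels below are in CPM, the usual unit of a gene's counts relative to the library total, scaled within each tissue by TMM, a method that corrects for a few very abundant genes. In the 5 tissues the fitted log2 difference of Ctcf itself, heterozygous over WT, lay between -0.70 (kidney) and -0.57 (muscle), and in muscle it was at 29.3, 32.0 and 34.3 CPM in the WT libraries against 23.5, 19.3 and 21.4 CPM in the heterozygous ones. This matches the genotype labels in direction, although by edgeR's quasi-likelihood test over all genes Ctcf passed an adjusted p of 0.05 in brain alone (0.0259) and had an adjusted p of 0.25 in muscle. The muscle libraries held their tissue's defining transcripts: the 8 skeletal fibre markers (Acta1, Ckm, Mylpf, Tnnt3, Tnni2, Myh4, Actn3 and Des) summed to between 165239 and 205474 CPM. Kidney replicate 3 of both genotypes also held such transcripts at a low level, with values given beside the kidney results.

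Upstream sequences are shown for 4 members, because all of their windows before the gene start held an E-box, the letters CANNTG bound by the MyoD family of muscle regulators. They come from RefSeq on GRCm38.p6 and end at the base before the RefSeq start, or before an annotated exon that lies upstream of it. All run 5′ to 3′ on the gene's strand and carry every CANNTG in capitals. The windows are chr1:136052561-136052749 (+) for Cacna1s, chr1:172219896-172220145 (-) for Casq1, chr3:102086165-102086414 (+) for Casq2 and chr7:126463109-126463323 (-) for Atp2a1.
Cacna1s: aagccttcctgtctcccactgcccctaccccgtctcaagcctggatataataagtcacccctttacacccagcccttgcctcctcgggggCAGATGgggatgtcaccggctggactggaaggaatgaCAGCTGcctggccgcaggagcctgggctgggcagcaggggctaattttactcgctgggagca
Casq1: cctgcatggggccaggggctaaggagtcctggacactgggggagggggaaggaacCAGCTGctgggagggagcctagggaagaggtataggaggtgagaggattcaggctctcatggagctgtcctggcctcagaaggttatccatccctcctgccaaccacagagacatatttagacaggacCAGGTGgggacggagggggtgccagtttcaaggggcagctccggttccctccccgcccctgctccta
Casq2: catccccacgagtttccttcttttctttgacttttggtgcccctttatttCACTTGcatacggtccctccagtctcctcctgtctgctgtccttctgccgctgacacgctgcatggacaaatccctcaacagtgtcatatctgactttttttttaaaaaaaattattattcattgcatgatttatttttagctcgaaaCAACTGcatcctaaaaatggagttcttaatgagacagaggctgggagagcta
Atp2a1: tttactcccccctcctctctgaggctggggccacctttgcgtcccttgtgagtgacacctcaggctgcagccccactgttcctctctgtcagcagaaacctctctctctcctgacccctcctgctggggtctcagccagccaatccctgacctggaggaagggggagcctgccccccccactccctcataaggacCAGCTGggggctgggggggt
The form CAGCTG stood 123 bases before the RefSeq start of Cacna1s, 195 bases before that of Casq1 and 55 bases before that of Atp2a1. Of the 7 windows available for members (Pvalb has 2, of which 1 held CANNTG), 5 held CANNTG and 3 held CAGCTG. Among all 32851 promoters in the table, 66.2% held CANNTG and 13.0% held CAGCTG in their 250 bases before the start. The windows of Cacna1s (189 bases), Atp2a1 (215) and Ryr1 (222) were shorter, since annotated exons were left out of them. In windows cut to the same length as for Cacna1s and Atp2a1, 9.77% and 11.1% of all promoters held CAGCTG. Both strings read the same on either strand. A site of MEF2, another muscle regulator, was matched in 2 of the 7 windows (Casq2 and Pvalb) and in 2.92% of all promoters over 250 bases. The serum response element known as the CArG box was matched in 0 of 7 and in 1.47% of all over 250 bases. Such matches describe the letters and no binding was measured. Windows for Atp2a2, Sln, Jph1 and Trdn were not used here.

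Nearly all of the group was concentrated in quadriceps. The 10 genes together took 4.42% to 5.20% of all counts in the WT muscle libraries, against 0.0857% to 0.0955% in brain and less than that in kidney, liver and spleen. In a fit of the 15 WT libraries, 10 of 10 members were higher in muscle than in the mean of the other 4 tissues by edgeR's quasi-likelihood test (adjusted p under 0.05), where 32.2% of the 22933 genes tested were. Against brain alone 9 of 10 were higher (32.5% of all genes), and against kidney, liver and spleen 10 of 10 each (28.5%, 32.3% and 37.2%). The member that did not pass against brain was Atp2a2. Measured as a share of total counts, as for the folds of single genes below, the median member stood 224 times higher in muscle than in brain. The TMM scaling used in the tests gives larger folds over brain. Total counts move the median gene by -1.27 on the log2 scale there.

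**Figure D1:**
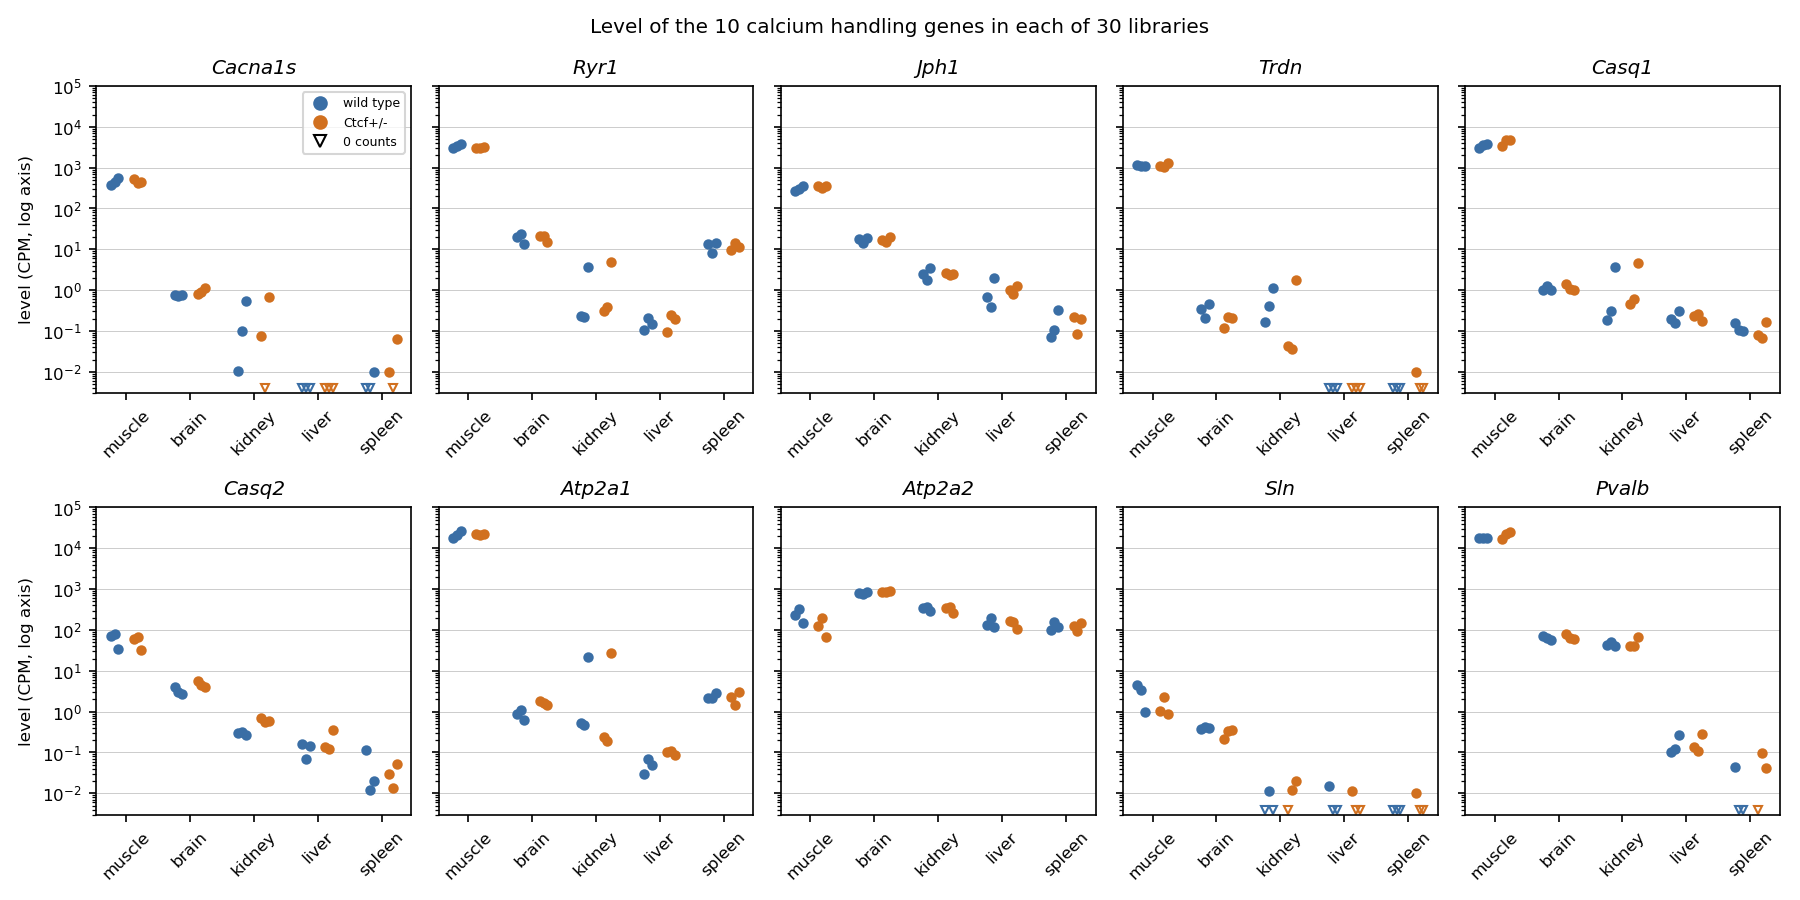
Level of each of the 10 genes (CPM, log axis) in every library, by tissue, with WT in blue, heterozygous in orange and open triangles for libraries with 0 counts. By CPM, not scaled between tissues, muscle is the top tissue for 9 genes. Atp2a2 is highest in brain by this measure and spans 125 to 335 CPM between the WT means of the other 4 tissues.

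Cacna1s (chr1:136052750-136119822, +) encodes the pore of the skeletal L-type calcium channel, the voltage sensor of the tubule. It stood at 384.9, 452.7 and 543.1 CPM in the WT muscle libraries. In brain it was at 0.729 to 0.767 CPM, and in kidney at 0.0105, 0.101 and 0.539 CPM. All 6 liver libraries held 0 counts, which allows up to 0.0348 to 0.0534 CPM per library. The muscle level was 608 times that of brain and at least 28952 times that of liver, the bound being taken against 3 counts over the 3 liver libraries. The tissues fell in the order muscle, brain, kidney, spleen, liver, and the libraries of spleen (0 to 0.0101 CPM) and liver could not be separated. About 20.0% of its exon bases overlap the gene model Gm37759, and reads there were left out by the authors' counting.

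Ryr1 (chr7:29003344-29125179, -, with 4.20% of its exon bases shared with other gene models) encodes the release channel of the reticulum that Cacna1s touches. Its 3 WT muscle libraries held 3021.5, 3380.1 and 3760.8 CPM. It was the only member besides Atp2a2 above 8 CPM in all WT libraries of both brain (13.4 to 23.5 CPM) and spleen (8.06 to 14.4 CPM), whose ranges overlapped. Liver held 0.103 to 0.209 CPM. Muscle was 172 times higher than brain, 282 times higher than spleen and 22899.7 times higher than liver.

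Jph1 and Trdn build the junction. Jph1 (chr1:16964560-17097889, -), a junctophilin that ties the tubule to the reticulum, stood at 269.1, 293.4 and 349.1 CPM in WT muscle and at 14.2 to 19.2 CPM in brain, an 18-fold difference. Kidney (1.81 to 3.58 CPM) and liver (0.382 to 1.98 CPM) overlapped below that. Trdn (chr10:33083483-33476709, +), which encodes triadin, an anchor between the release channel and the calcium buffer of the store, was at 1155, 1085 and 1111 CPM in WT muscle. It had 0 counts in every WT library of liver and spleen, and muscle was at least 70833 times higher than liver. Its brain (0.206 to 0.464 CPM) and kidney (0.168 to 1.15 CPM) libraries overlapped.

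The calsequestrins buffer calcium inside the store. Casq1 (chr1:172209894-172219868, -, with 8% of its exon bases shared with Gm17224), the fast-fibre form, stood at 3079.6, 3492.0 and 3762 CPM in WT muscle and Casq2 (chr3:102086415-102146514, +), the form of heart and slow fibres, at 70.9, 78.4 and 35.2 CPM. Outside muscle both were low, and brain was the tissue where Casq2 was next highest, at 4.04, 3.07 and 2.72 CPM against 0.275 to 0.315 CPM in kidney. Casq1 was at 1.01 to 1.29 CPM in brain, with the kidney libraries on either side of that range.

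Of the pumps, Atp2a1 (chr7:126445858-126463108, -), which encodes SERCA1, the calcium pump of fast fibres, was the most abundant pump gene by far in muscle: 17727, 21312 and 25843 CPM in the WT libraries. Spleen held 2.14 to 2.90 CPM and brain 0.626 to 1.13 CPM, and muscle was 8722 and 23332 times higher. A share of 21.9% of its exon bases overlaps Rabep2, so its level leaves out reads there. Atp2a2 (chr5:122453513-122502225, -) encodes SERCA2, the pump of slow fibres, heart and most other cells. It was at 231.4, 326.8 and 145.0 CPM in WT muscle, 748.2 to 865.8 CPM in brain, 290.9 to 374.8 CPM in kidney, 121.2 to 194.8 CPM in liver and 100.1 to 155.6 CPM in spleen. In these CPM, which are scaled within each tissue and not between tissues, brain was separate from the rest. By the same measure, in the order kidney, muscle, liver, spleen each tissue overlapped the next, although kidney lay apart from liver and spleen. With TMM across tissues muscle was not called against brain and lay above kidney.

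The sign of the muscle difference of Atp2a2 rests on how tissues are scaled. TMM across tissues gave muscle over the mean of the others a log2 difference of 0.81 (SE 0.21, adjusted p 0.0024 by edgeR), with 0.65 (SE 0.27) over kidney and 2.26 (SE 0.27) over spleen, and -0.52 (SE 0.27, adjusted p 0.0976) against brain. Scaling by total counts alone, which is close to the CPM values above, moves the median gene by -0.98 and turned the first of these to -0.18 and that over kidney to -0.51. In the 15 heterozygous libraries the same TMM fit gave -0.17 over the mean of the others. Without WT muscle replicate 2, its highest muscle library, the difference from the mean of the others was 0.48 with an adjusted p of 0.0573 by edgeR, and over kidney and liver 0.32 and 0.51, neither called. Over kidney it was also not called with no filter on low counts (0.46, adjusted p 0.181 by edgeR), nor over liver without WT liver replicate 3 (0.68, adjusted p 0.058 by edgeR).

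Sln (chr9:53850251-53853844, +), which encodes sarcolipin, a small peptide that inhibits SERCA pumps, was the least abundant member in muscle at 4.42, 3.40 and 0.964 CPM in the WT libraries. WT replicate 3 stood apart from the other two. Brain was next, at 0.365 to 0.413 CPM, 7.59 times lower than muscle, and only 1 count each was found in the WT kidney and WT liver groups. Pvalb (chr15:78191114-78206400, -), which encodes parvalbumin, the cytosolic calcium buffer of fast fibres and of a class of inhibitory neurons, was second only to Atp2a1 in CPM and highest per length. Its WT muscle libraries held 18019, 18270.4 and 17529.6 CPM, an SD of 376.8 CPM. Brain held 55.5 to 72.5 CPM, kidney 39.5 to 51.2 CPM, liver 0.103 to 0.262 CPM and spleen 3 counts in all.

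Per kilobase of exon, which allows genes to be compared, the order in WT muscle was Pvalb (17233 ± 362 CPM per kb, SD, n = 3), Atp2a1 (6220.1 ± 1170), Casq1 (1766 ± 176), Trdn (247 ± 7.84), Ryr1 (156 ± 16.99), Cacna1s (70.3 ± 12.1), Jph1 (60.8 ± 8.21), Atp2a2 (38.5 ± 14.96), Casq2 (22.5 ± 8.44) and Sln (5.69 ± 3.45). Cacna1s and Jph1 overlapped across libraries, as did Atp2a2 and Casq2. The buffer and the pump of fast fibres thus lay well above the channels by this measure.

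Each member was also set beside its paralogues, genes of the same family from the list of related calcium genes. In WT muscle Atp2a1 made up 99.3% ± 0.290 (SD, n = 3) of the 3 SERCA genes per kilobase, Ryr1 99.98% of the ryanodine receptors, Cacna1s 99.9% of the alpha1 subunits compared, and Casq1 98.7% ± 0.539 of the calsequestrins. Jph1 was an exception, with 18.6% ± 0.382 of the junctophilins against 81.4% ± 0.387 for Jph2. Brain used other members of the same families: Atp2a2 made up 98.6% ± 0.137 of SERCA, Ryr2 77.2% ± 4.32 of the ryanodine receptors, and Jph3 and Jph4 together nearly all junctophilin. Casq2 was 67.4% ± 5.55 of brain calsequestrin. In spleen Atp2a3 was 82.0% ± 2.55 of SERCA and Ryr1 65.9% ± 14.1 of the ryanodine receptors, at levels per kilobase under 1 for the latter. Of the small peptides that bind SERCA, Mrln (myoregulin) made up 89.0% ± 4.81 in WT muscle and Sln 7.25% ± 3.89.

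**Figure D2:**
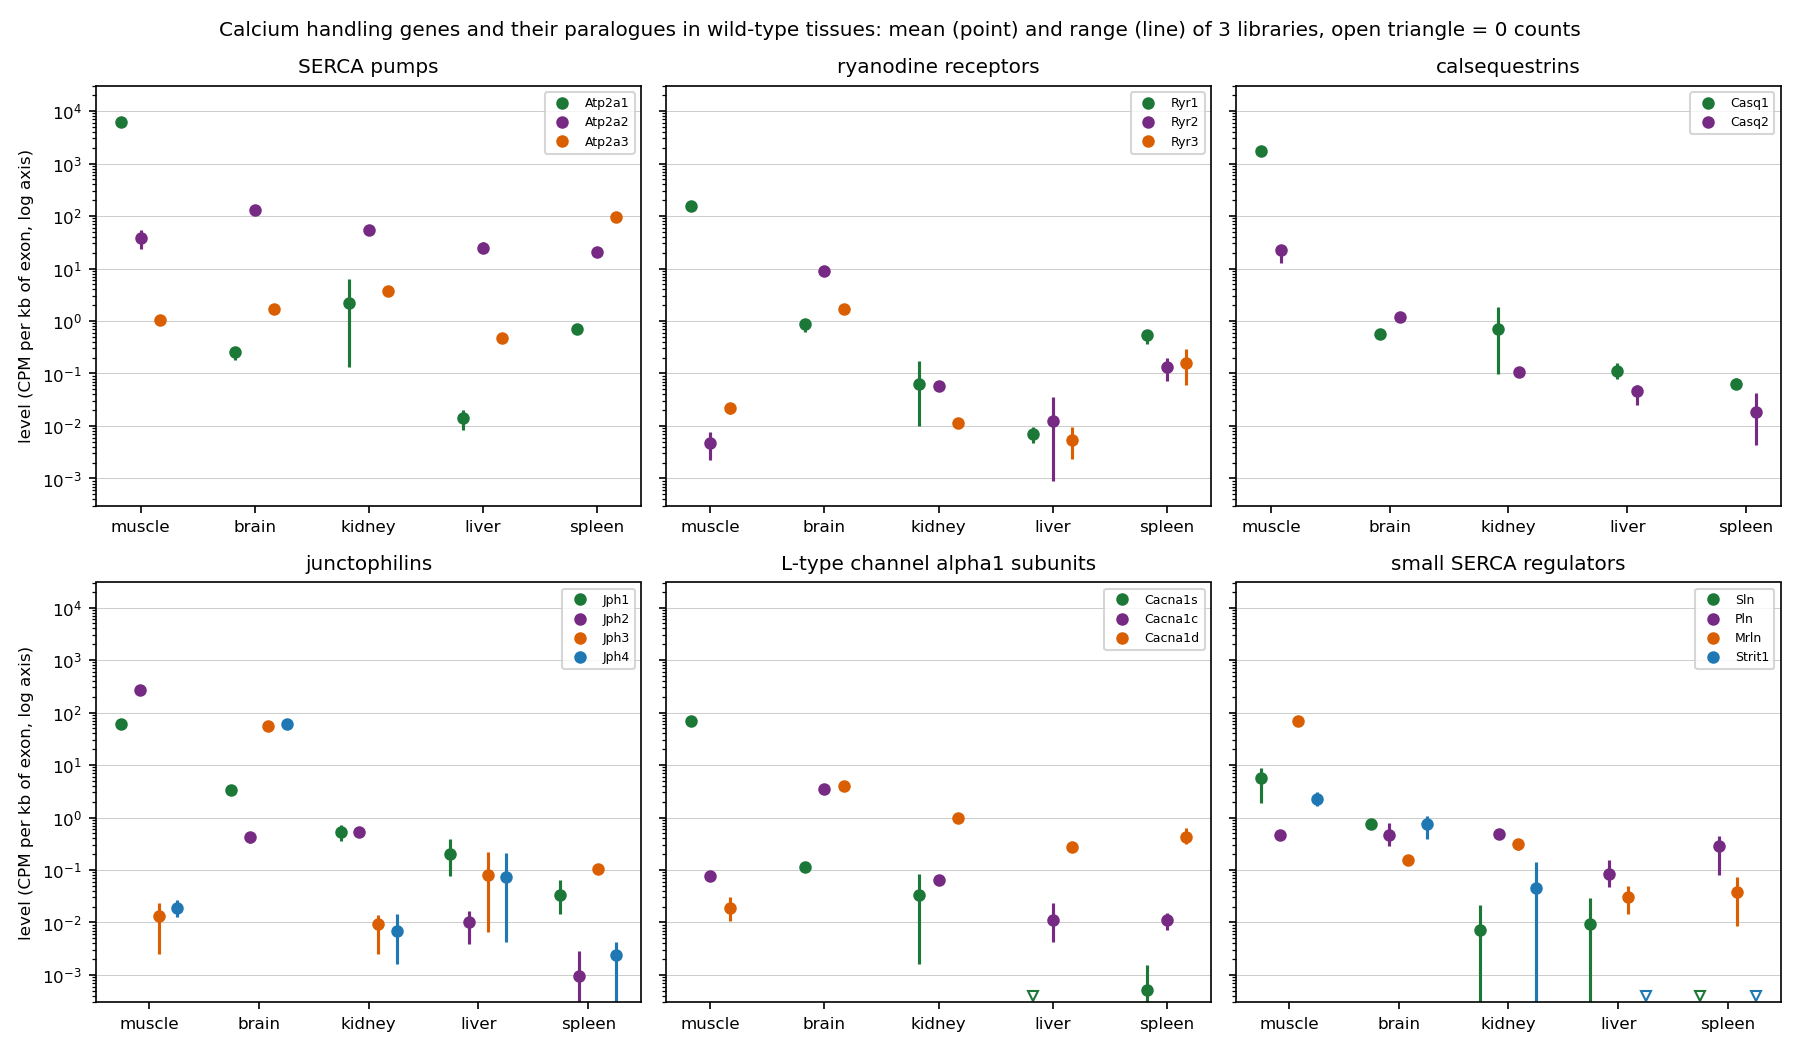
Level of each member and its paralogues (CPM per kb of exon, log axis) in the WT tissues, with the mean of 3 libraries as a point and their range as a line that runs off the axis where a library had 0 counts. Muscle is led by Atp2a1, Ryr1, Casq1 and Cacna1s, whereas brain is led by Atp2a2, Ryr2 and Casq2, and Jph2 lies above Jph1 in muscle.

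For each member the gene whose level was most like it over the 30 libraries was also found. By Pearson's r of log2 CPM, the nearest gene was Hrc for Trdn (0.995), Ppp1r3a for Casq1 (0.993), Cavin4 for Cacna1s (0.991), Smyd2 for Jph1 (0.989), Atcayos for Ryr1 (0.988), Ttn for Atp2a1 (0.987), Asph for Pvalb (0.986), Sema6c for Casq2 (0.981) and Col22a1 for Sln (0.979). Jph1 was itself the second nearest gene to Casq2. For Atp2a2 it was Dkk3 (0.947). The libraries share 5 tissues, so these values describe the tissue pattern and carry no test.

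The comparison of genotypes asks whether loss of 1 Ctcf copy goes with other levels of these genes. In muscle 0 of 10 members were called by edgeR's quasi-likelihood test at an adjusted p under 0.05, where 0.0249% of the 16064 genes tested were, and none had an unadjusted p under 0.05 (6.45% of all genes). DESeq2 called 0 as well. A fit with the replicate number as a block called 1, Atp2a2 (adjusted p 0.0152 by edgeR), but the labels do not say that the numbers mark pairs. The log2 differences, heterozygous over WT, ran from -1.05 to 0.30 with a median of 0.002 (-0.0075 over all genes). No member had groups that did not overlap, against 12.2% of all genes.

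**Figure D3:**
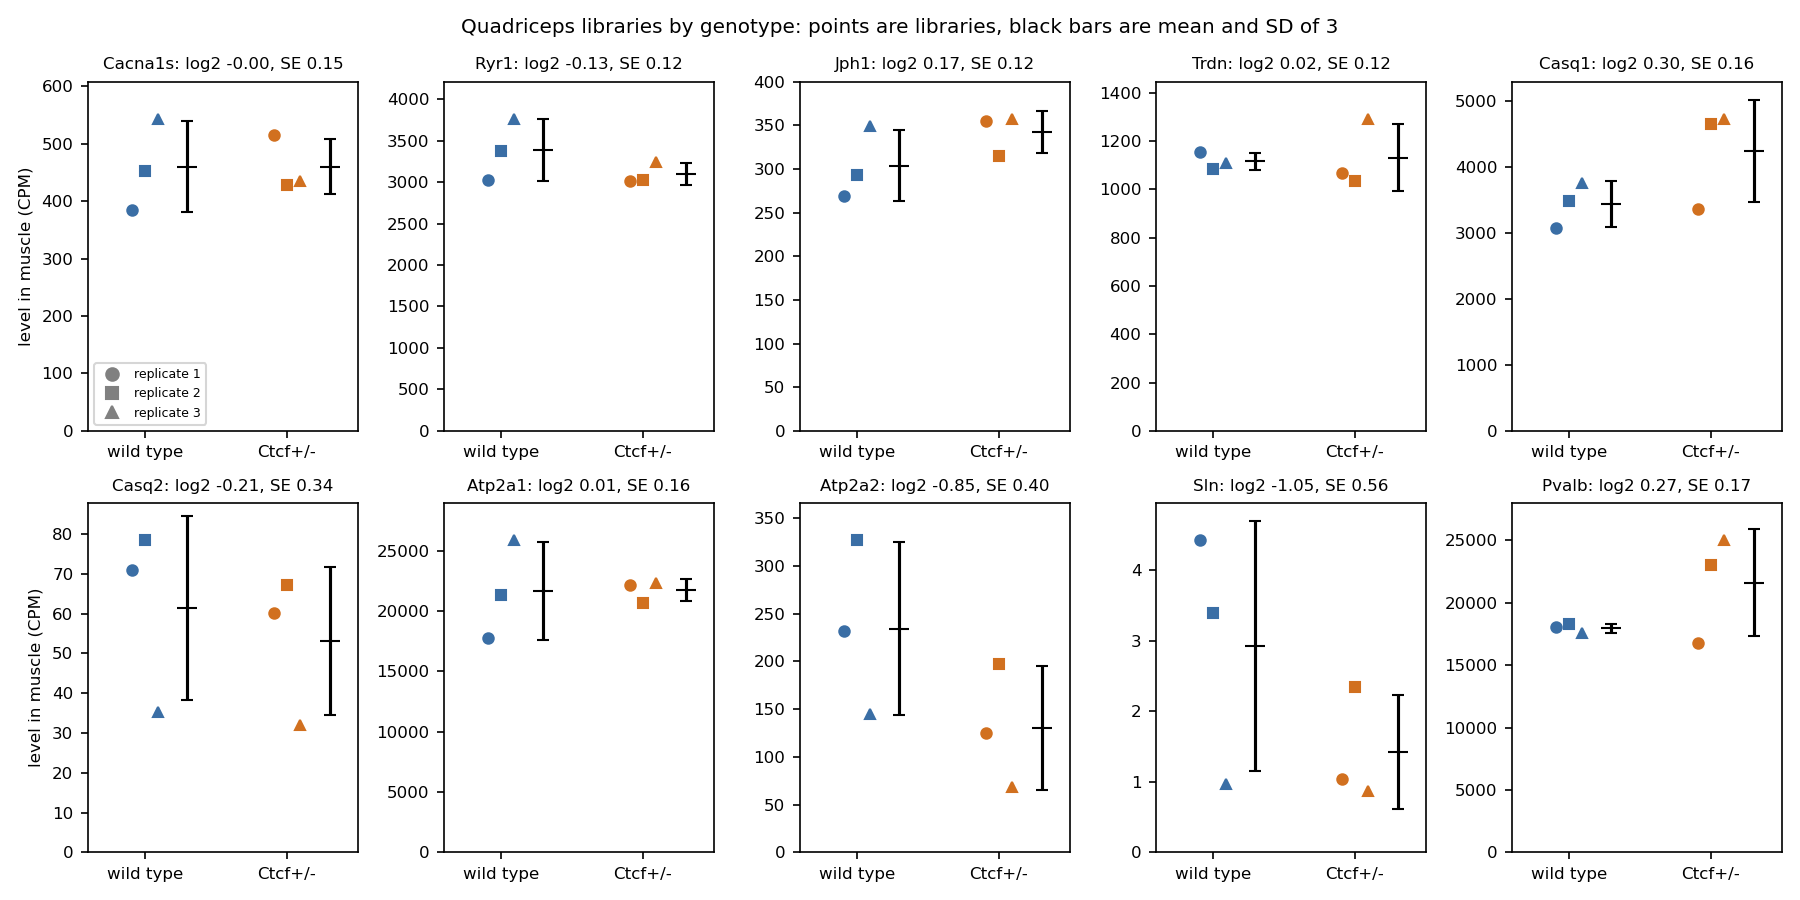
Level of the 10 genes in the 6 quadriceps libraries (CPM, linear axes from 0), by genotype, with the marker shape giving the replicate number, black bars the mean and SD of 3, and the fitted log2 difference, heterozygous over WT, in each title. The groups overlap in every panel, and replicate 3 is lowest in both genotypes for Casq2, Atp2a2 and Sln.

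Tubule and junction genes lay close together in the genotypes. Ryr1 held 3008, 3027 and 3248 CPM in the heterozygous muscle libraries, within or just below the WT range, and differed by -0.13 (SE 0.12). Cacna1s held 515.4, 428.6 and 435.5 CPM and differed by -0.00 (SE 0.15), its sign changing with the scaling. Trdn, at 1069, 1034 and 1292 CPM, differed by 0.02 (SE 0.12). Jph1, at 354.6, 314.3 and 357.3 CPM, differed by 0.17 (SE 0.12).

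For the buffers and the fast pump the groups overlapped too, although some heterozygous libraries of Casq1 and Pvalb lay above the WT range. Casq1 held 3362, 4662 and 4733 CPM in the heterozygous libraries, of which 2 were above every WT library (log2 difference 0.30, SE 0.16, adjusted p 0.855 by edgeR). Pvalb held 16776, 23043 and 24978 CPM, and replicates 2 and 3 lay above the narrow WT range while replicate 1 lay below it (0.27, SE 0.17). For Atp2a1, at 22123, 20664 and 22334 CPM, the heterozygous libraries all fell inside the WT range (0.01, SE 0.16). Casq2, at 60.2, 67.2 and 31.9 CPM, differed by -0.21 (SE 0.34).

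Atp2a2 and Sln had the lowest fitted values. Atp2a2 was at 125.5, 197.4 and 68.2 CPM in the heterozygous muscle libraries against 231.4, 326.8 and 145.0 CPM in WT. The groups overlapped, with WT replicate 3 below heterozygous replicate 2. The means were 130.4 ± 64.8 and 234 ± 90.9 CPM (SD, n = 3), a log2 difference of -0.85 (SE 0.40) with an unadjusted p of 0.0665 and an adjusted p of 0.808 by edgeR. Sln was at 1.04, 2.35 and 0.876 CPM against 4.42, 3.40 and 0.964 CPM, a difference of -1.05 (SE 0.56, adjusted p 0.855 by edgeR) from 391 and 900 counts in all. Leaving out 1 library moved the difference of Atp2a2 to between -1.28 (without heterozygous replicate 2) and -0.53 (without heterozygous replicate 3), with -0.54 without WT replicate 2. That of Sln moved to between -1.62 (without heterozygous replicate 2) and -0.63 (without WT replicate 1), and neither gene was called in any of these fits by edgeR. The ratio of Atp2a1 to Atp2a2 per kilobase was 134, 114 and 312 in the WT libraries and 308, 183 and 573 in the heterozygous ones. That log2 difference of 0.92 had a p of 0.3 in a two-sided exact permutation test, which cannot go below 0.1 with 3 against 3, and it ran from 0.50 to 1.37 when 1 library was left out. Casq1 to Casq2 gave 60.9, 62.5 and 150 against 78.3, 97.3 and 208, with an exact permutation p of 0.5 and log2 differences of 0.0737 to 0.918 when 1 library was left out.

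Markers of slow fibres also had lower fitted values in heterozygous muscle. The 6 slow markers (Myh7, Tnnt1, Tnni1, Myl2, Myl3 and Tpm3) summed to 2195, 2710 and 995 CPM in the WT muscle libraries and to 697, 1392 and 435 CPM in the heterozygous ones, and the median log2 difference was -1.24. All 6 had an unadjusted p under 0.05 (6.45% of all genes) and 0 were called by edgeR. Myh7, the slow myosin heavy chain, was at 398.4, 582.4 and 256.8 CPM in WT and 146.3, 313.3 and 60.2 CPM in heterozygous libraries. Replicate 3 was lowest in both genotypes, as it was for Atp2a2, Casq2 and Sln. The sums of the slow markers overlapped, with WT replicate 3 (995 CPM) below heterozygous replicate 2 (1392 CPM). Groups that did not overlap were found for 0 of the 6, against 12.2% of all genes. The fast markers overlapped too, at 130369 to 139564 CPM against 121754 to 150855 CPM. The part of the slow markers in the values of Atp2a2 and Sln was not tested.

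The relation to Myh7 was examined after these values had been seen, over the 6 muscle libraries and all 10 members. The p-values below come from the same 6 libraries that led to the choice of Myh7. Their adjustment covers the 10 members but not that choice, so they cannot serve as a test of a link. For Atp2a2 Pearson's r of log2 CPM was 0.985 (exact permutation p 0.0014, adjusted over the 10 members 0.0139) and Spearman's rho was 1 (exact permutation p 0.0028, adjusted 0.0278). Without WT replicate 2 and heterozygous replicate 3, the libraries farthest from the median of Myh7, r was 0.937 over 4. Sln had r 0.81 (exact permutation adjusted p 0.204) and rho 0.886 (0.0833), and r 0.818 without those 2 libraries. Casq2 had r 0.756 (exact permutation adjusted p 0.205) and rho 0.943 (0.0556), and its r fell to 0.239 without them, so that relation rests on them. Jph1 ran the other way, with r -0.776 (exact permutation adjusted p 0.204), rho -0.943 (0.0556), and r -0.843 without those 2 libraries. Atp2a1 had r -0.34. Each genotype alone holds 3 libraries, too few for a value of its own. The permutations ignored genotype, and Atp2a2 and Myh7 both had lower fitted values in heterozygous muscle (log2 differences -0.85 and -1.25). These p-values therefore cannot separate a shared difference between genotypes from covariation between libraries.

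**Figure D4:**
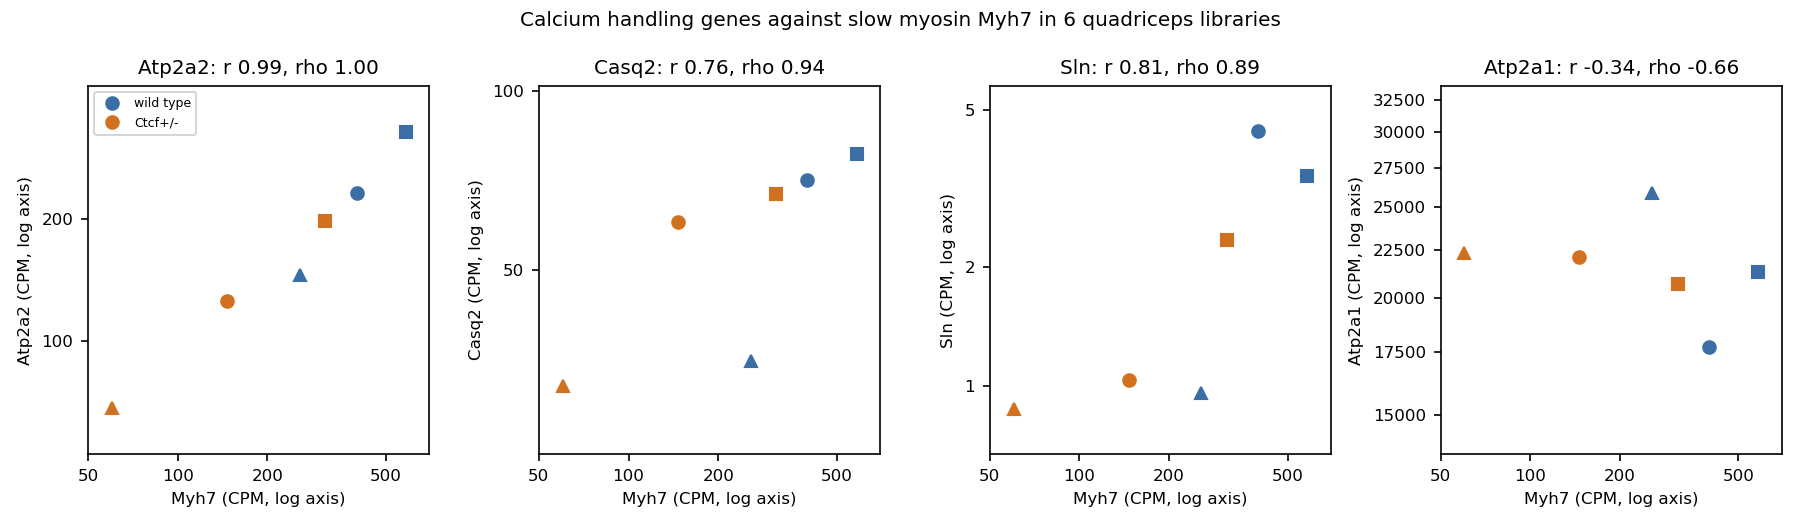
Atp2a2, Casq2, Sln and Atp2a1 against the slow myosin Myh7 (CPM, log axes) in the 6 quadriceps libraries, with WT in blue, heterozygous in orange, and circles, squares and triangles for replicates 1, 2 and 3. The points of Atp2a2 follow Myh7 in order without exception, while those of Atp2a1 do not rise with it.

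Other cell types were also checked in muscle. The 5 adipocyte markers (Adipoq, Plin1, Cfd, Lep and Retn) summed to 66.0, 46.6 and 23.6 CPM in WT and to 307.9, 118.1 and 231.5 CPM in heterozygous libraries, with no overlap of the sums. Of the 5 genes, 4 had groups that did not overlap, against 12.2% of all genes. All 5 had an unadjusted p under 0.05 (6.45% of all genes) and 0 were called by edgeR. The 4 fibroblast markers summed to 338, 474 and 290 CPM in WT and 585, 786 and 370 CPM in heterozygous libraries, with a median log2 difference of 0.58 and 1 of 4 (Col3a1) at an unadjusted p under 0.05. The 3 macrophage markers summed to 5.05, 6.46 and 3.81 CPM against 9.001, 10.1 and 5.74 CPM, with a median of 0.74 and 2 of 3 (Adgre1 and Csf1r) at an unadjusted p under 0.05. Over all genes 6.45% had an unadjusted p under 0.05. Of the fibroblast and macrophage lists 0 genes were called by edgeR, and the sums overlapped. Neuron markers were near 0 (at most 0.0394 CPM summed), endothelium overlapped (180.5 to 234.1 against 149.2 to 229.4 CPM), and heart markers were at 3.56 to 11.2 CPM in all 6. Their part in the members' values was not tested.

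Of 58 other genes of calcium handling, 54 were tested in muscle and 0 were called by edgeR. An unadjusted p under 0.05 was reached by 7 of the 54 (6.45% of all genes), 2 higher and 5 lower in heterozygous libraries, and the median log2 difference was 0.00. S100a1, a calcium sensor that binds the release channel and SERCA, was at 151.3, 109.2 and 88.5 CPM in WT and 42.4, 43.1 and 45.8 CPM in heterozygous libraries, without overlap (log2 difference -1.41, SE 0.18, adjusted p 0.116 by edgeR). Tnnc1, the troponin C of slow fibres and heart, was at 217.0, 248.9 and 95.6 CPM against 63.4, 124.1 and 35.6 CPM (-1.33, SE 0.47, adjusted p 0.65 by edgeR), again lowest in replicate 3. Sypl2, a membrane protein of the junction also called mitsugumin 29, was at 420.6, 494.6 and 538.8 CPM against 579.6, 652.4 and 666.5 CPM, without overlap (0.38, SE 0.12, adjusted p 0.551 by edgeR). Groups that did not overlap, as for S100a1 and Sypl2, were found for 7 of the 54 and for 12.2% of all genes. Slc8a1, a sodium-calcium exchanger, differed by 0.32 (SE 0.51).

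The most abundant of these genes per kilobase, as counted, did not differ beyond their error. That order leaves out reads in shared exons. For Tnnc2, also in the list, 74% of the exon bases are shared with Ube2c, so its level may be understated. Tmem38a, a potassium channel of the reticulum, differed by 0.01 (SE 0.10), Jsrp1, a junction protein, by -0.13 (SE 0.14), Hrc, a calcium binder of the store, by -0.11 (SE 0.12), and Bin1, which shapes the tubules, by -0.05 (SE 0.12). Between tissues, of the 58 genes 40 were higher and 10 lower in WT muscle than in the mean of the other 4 tissues by edgeR (adjusted p under 0.05, against 32.2% higher and 34.7% lower over all genes). In the other tissues 0 of them were called between genotypes by edgeR, with 2 of 57 tested at an unadjusted p under 0.05 in brain (2.96% of all genes), 4 of 52 in kidney (6.44%), 3 of 43 in liver (4.56%) and 1 of 46 in spleen (3.52%).

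By CPM scaled within each tissue, brain had the highest Atp2a2 and, after muscle, the highest Pvalb. None of the 10 members was called between genotypes there by edgeR (0.0157% of 19166 genes were) or DESeq2, and 2 of 10 had an unadjusted p under 0.05 (2.96% of all genes). Atp2a1 was at 0.890, 1.13 and 0.626 CPM in WT and 1.80, 1.63 and 1.46 CPM in heterozygous libraries, without overlap (log2 difference 0.87, SE 0.22, unadjusted p 0.0042, adjusted p 1 by edgeR). Casq2 was at 4.04, 3.07 and 2.72 CPM against 5.58, 4.56 and 3.94 CPM, where the lowest heterozygous library was below the highest WT one (0.52, SE 0.19, unadjusted p 0.0241 by edgeR). Groups did not overlap for Atp2a1 and Cacna1s (both higher) and Sln (lower), 3 of 10 members against 7.83% of all genes. Within each genotype Casq2 was highest in replicate 1 and lowest in replicate 3. Trdn was at 0.350, 0.206 and 0.464 CPM against 0.117, 0.214 and 0.207 CPM (-0.85, SE 0.38) on 8 to 28 counts per library. Pvalb overlapped, at 55.5 to 72.5 against 58.8 to 80.8 CPM (0.07, SE 0.14), and so did Atp2a2, at 748.2 to 865.8 against 854.1 to 904.2 CPM (0.12, SE 0.07).

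In kidney 8 of 10 members were tested and 0 were called by edgeR (0.0211% of 18937 genes were) or DESeq2, with 1 at an unadjusted p under 0.05 (6.44% of all genes). Casq2 was at 0.304, 0.315 and 0.275 CPM in WT and 0.686, 0.551 and 0.577 CPM in heterozygous libraries (log2 difference 1.02, SE 0.25, unadjusted p 0.0032, adjusted p 0.419 by edgeR). Its groups did not overlap, which held for 11.4% of genes, and the counts behind them were 84 and 168 in all. Pvalb, which marks cells of the distal convoluted tubule in kidney, was at 42.5, 51.2 and 39.5 CPM against 40.9, 41.2 and 65.7 CPM (0.15, SE 0.19). Markers of that tubule summed to 1184 to 1312 CPM in WT and 1525 to 1565 CPM in heterozygous libraries, lowest in heterozygous replicate 3. Their part in the level of Pvalb was not tested.

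Kidney replicate 3 of both genotypes carried skeletal fibre transcripts. Acta1 was at 0.0629, 0.146 and 35.3 CPM in the WT libraries and 0.0739, 0 and 43.6 CPM in the heterozygous ones, and all 8 fibre markers were highest in replicate 3. Their excess over replicates 1 and 2 was 0.0942% to 0.116% of the muscle level in WT and 0.108% to 0.197% in heterozygous libraries. Atp2a1 followed the same pattern, at 0.524, 0.462 and 22.2 CPM in WT and 0.243, 0.192 and 27.2 CPM in heterozygous libraries, an excess of 0.1003% and 0.124%. Ryr1, Casq1, Cacna1s and Trdn were also highest in replicate 3 of both genotypes, whereas Casq2 and Atp2a2 were not. Jph1 was highest in replicate 3 of WT (2.52, 1.81 and 3.58 CPM, an excess of 0.467%) but not of the heterozygous libraries. Pvalb was highest in replicate 3 of the heterozygous libraries alone, with an excess of 0.114% of the muscle level, against -0.0412% in WT. Without the replicate 3 libraries the difference of Casq2 was 0.997 (SE 0.339), and 0 members were called. The kidney values of Ryr1, Casq1, Cacna1s, Trdn and Atp2a1 given above thus depend on 1 library of 3 in each genotype. The higher heterozygous mean of Pvalb rests on replicate 3, and the part of fibre transcripts in it was not tested.

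**Figure D5:**
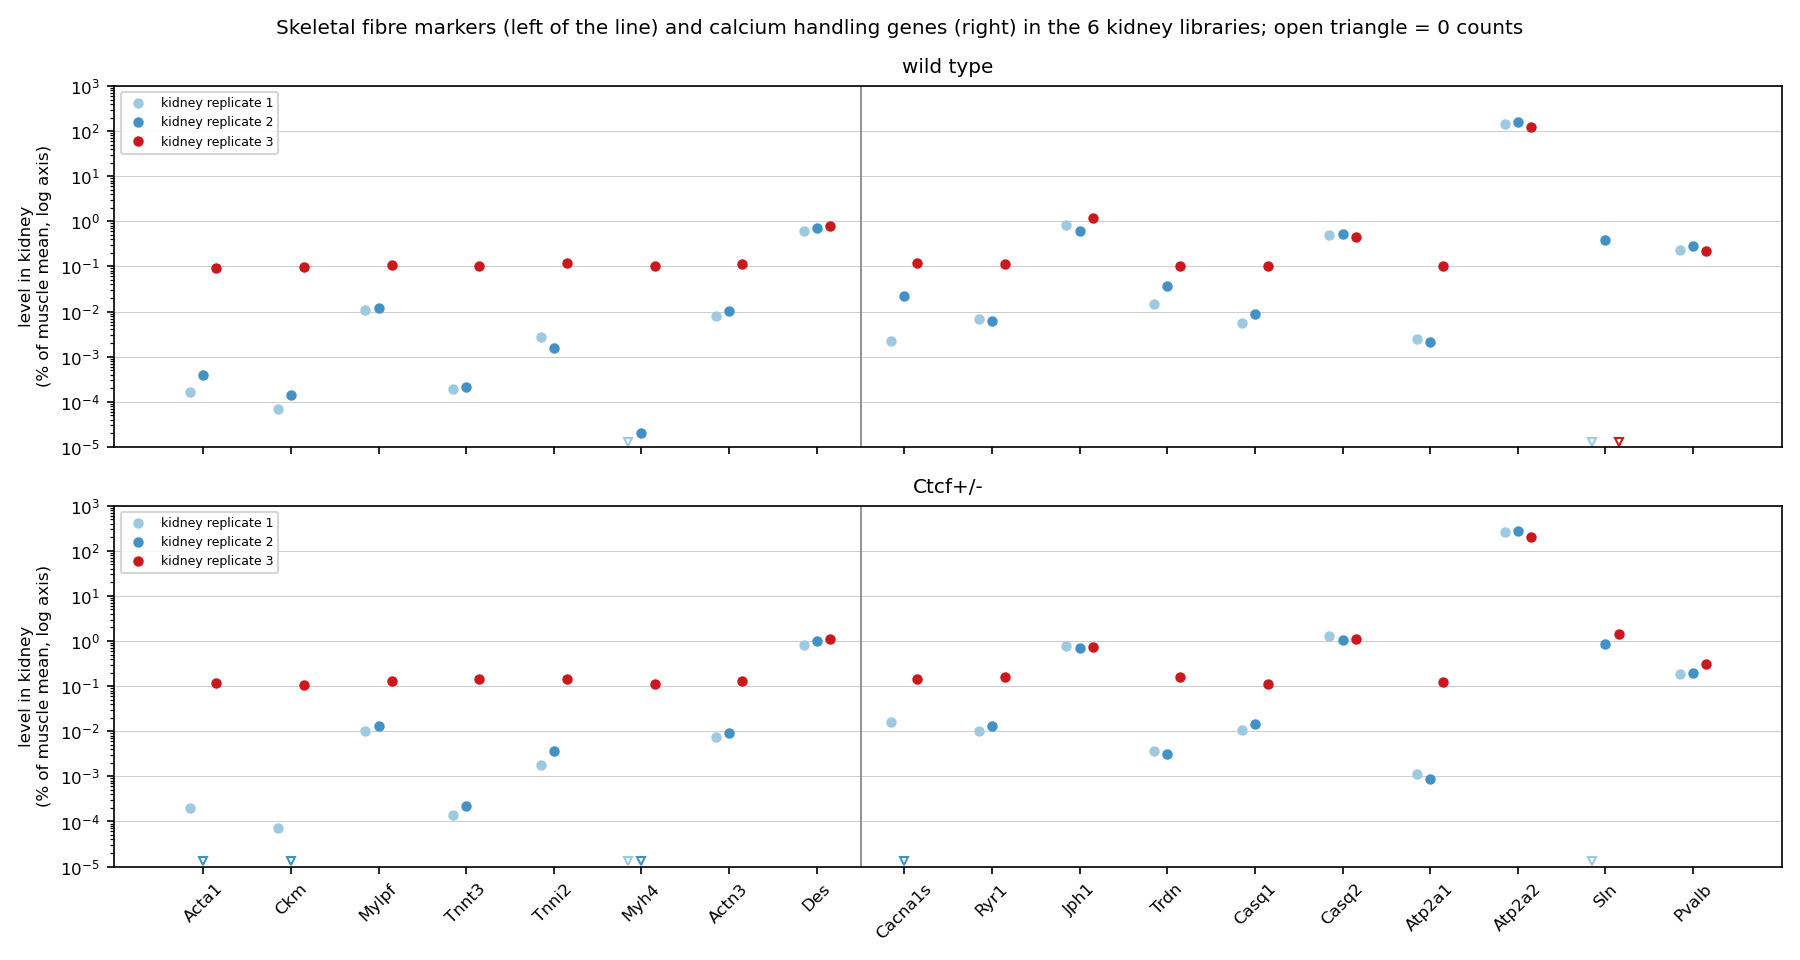
Level of 8 skeletal fibre markers (left of the grey line) and of the 10 calcium handling genes (right) in the kidney libraries, as a percentage of the muscle mean of the same genotype (log axis), with replicate 3 in red and open triangles for 0 counts. In both genotypes replicate 3 lies near 0.1% for 7 of the markers and for Ryr1, Casq1, Cacna1s, Trdn and Atp2a1, above replicates 1 and 2. Of these genes the gap is smallest for Trdn in WT (0.168, 0.405 and 1.15 CPM).

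Liver and spleen held little of the group beyond Atp2a2. In liver 5 of 10 members passed the filter on low counts and 0 were called by edgeR or DESeq2 (0.0193% of 15584 genes were by edgeR), and none had an unadjusted p under 0.05 (4.56% of all genes). In spleen 4 of 10 passed it and 0 were called by either tool, against 0.242% of 18615 genes, with none at an unadjusted p under 0.05 (3.52% of all genes). Spleen Ryr1 was at 13.1, 8.06 and 14.4 CPM in WT and 9.83, 14.7 and 11.6 CPM in heterozygous libraries (log2 difference 0.02, SE 0.27), and Atp2a2 differed by -0.03 (SE 0.23). Liver Atp2a2 was at 135.1, 194.8 and 121.2 CPM against 169.6, 155.6 and 104.7 CPM (-0.07, SE 0.23).

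Whether the genotype difference in muscle departed from that in the other 4 tissues was tested in a fit of all 30 libraries. None of the 10 members was called by edgeR (0.503% of 24262 genes were). The lowest p of the 10 was that of Atp2a2, with -0.84 (SE 0.34, unadjusted p 0.0207, adjusted p 0.574 by edgeR). The share of all genes with as low an unadjusted p was not counted for this difference. DESeq2 was not run for this difference. The fitted value of Atp2a2 was thus -0.85 in muscle and between -0.07 and 0.12 on the log2 scale in the other tissues, a difference that did not pass after adjustment.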

How the data were processed

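Total RNA was sequenced in 30 libraries of 5 tissues, 3 per genotype and tissue. The deposited values are raw counts of fragments per gene from featureCounts 1.5.0-p3, run by the authors with Ensembl 86 gene models (GRCm38), unstranded and without multi-mapping or multi-overlapping fragments, per the file headers. The submitters' processing notes also name FastQC, STAR and DESeq2. Library totals ran from 49819907 to 131645999 counts, and 3 counts, the limit that a count of 0 allows, cover counting error only. Symbols from GENCODE M21 matched 48349 of 48709 genes.

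Counts were filtered (filterByExpr), scaled by TMM and tested with edgeR 4.0.16's quasi-likelihood test in R 4.3.3 within each tissue, between tissues in 15 WT libraries, and for the interaction in all 30. P-values were adjusted by Benjamini-Hochberg over all genes tested, with a threshold of 0.05. DESeq2 1.42.0, total-count scaling, no filter, a replicate block and leaving out libraries were alternatives. The scripts were tested on simulated data. Named genes were the members, Ctcf, and per list the called genes, the 4 highest per kb in muscle and the 4 with the largest change at 1 CPM or more. Naming other markers and paralogues, and using Myh7 for correlations, was decided after values were seen. Members and lists were chosen with earlier results of these data known. Labels do not link libraries to animals, so p-values measure the spread between these libraries. Same-numbered libraries deviated together in brain (r 0.28 to 0.64) and kidney (r 0.23 to 0.27). In muscle r was 0.08, 0.33 and 0.44 for replicates 1, 2 and 3, and a replicate block there called Atp2a2.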

Additional observations from a re-analysis of the deposited data

How the results depend on the processing

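Across 497 alternatives, a count of members was labelled the same if it changed by a small factor at most, and a ratio if its sign held. Single genes were labelled the same if sign and call held, weaker if a call was lost and stronger if gained. By these labels counts and ratios stayed the same in 192 and moved in 1. Single genes stayed in 264, reversed in 20, and became weaker in 14 or stronger in 6. Counts labelled the same include changes from 10 to 9 (muscle against the mean of the others, kidney and liver) and from 9 to 10 (against brain). With a replicate block in muscle 1 member was called, Atp2a2 (-0.90, adjusted p 0.0152 by edgeR). There the same-numbered libraries had r of 0.08, 0.33 and 0.44, and those of replicate 1 did not correlate best with each other, so the numbers were not taken as pairs. In brain and kidney the block changed no member's call. Cacna1s in muscle turned to 0.0220 with total counts, 0.00644 with no filter, 0.00739 with the replicate block, 0.0196 in the fit of 30 libraries and 0.18 without both replicate 3 libraries (chosen after seeing the data), where Trdn turned to -0.0826. Leaving out 1 library gave -0.12 to 0.15 for Atp2a1, -0.49 to 0.0584 for Casq2, -0.11 to 0.13 for Cacna1s, -0.0786 to 0.0733 for Trdn, -1.28 to -0.53 for Atp2a2 and -1.62 to -0.63 for Sln in muscle. Atp2a2 over the mean of the other tissues turned to -0.18 with total counts and -0.17 in heterozygous libraries, over kidney to -0.51 and -0.25, and over liver to -0.0945 in the latter. The causes were not tested. Over all genes, muscle calls were 4 by edgeR, 159 by DESeq2, 118 with the block, 66 with no filter, 229 in the fit of 30 and 2 without both replicate 3 libraries. In brain, kidney, liver and spleen they were 3, 4, 3 and 45 by edgeR against 28, 175, 72 and 187 by DESeq2 and 22, 21, 7 and 0 with the block. Members with few counts outside muscle limit what could be detected there.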
